A study of Mus musculus with 16 samples.

Results

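The 6 genes of calcium-binding proteins that mark interneurons of the olfactory bulb were followed across tissue and genotype. They are Calb1 (calbindin), Calb2 (calretinin), Pvalb (parvalbumin), Scgn (secretagogin), Necab1 and Necab2. The members were the probe sets that the platform annotation ties to these symbols, and each gene had a single probe set, so 6 probe sets stood for 6 of the 19938 genes measured. RNA came from the subependymal zone (SEZ), the stem cell niche along the lateral ventricle, and from the olfactory bulb core (OB), the tissue its newborn neurons migrate to. The study asked what the loss of Brg1, an ATPase of SWI/SNF chromatin remodelling complexes, does in either place.

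All mice were 2.5 months old, of mixed C57BL/6 and CD1 background, and carried GlastCreERT2, a tamoxifen-dependent recombinase expressed from the Glast (Slc1a3) locus of astroglia and adult neural stem cells. Conditional knockouts (cKO) were GlastCreERT2/Brg1fl/fl and gave 3 arrays per tissue. Controls were GlastCreERT2/Brg1fl/+ and gave 5 arrays per tissue, except that SEZ control replicate 5 is labelled GlastCreERT2/Brg1+/+. The labels record no treatment, and no source used here states when recombination was induced. Recombination is limited to cells in which the Glast locus is active and to their progeny, so cells outside that lineage keep their Brg1 alleles. The labels call the samples biological replicates without saying whether equal numbers in SEZ and OB are the same animal.

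These proteins bind calcium through EF-hands, helix-loop-helix folds that hold the ion in an acidic loop. Calretinin, calbindin and parvalbumin are known chiefly as fast or slow cytosolic buffers that shape calcium transients. Secretagogin is counted among the calcium sensors, and the Necab proteins carry an EF-hand near the N terminus. In the bulb, calretinin and calbindin mark separate groups of periglomerular neurons, calretinin also marks granule cells, and parvalbumin marks interneurons of the external plexiform layer. Outside the bulb, calbindin is abundant in projection neurons of the striatal matrix, which lies beside the SEZ, and parvalbumin marks fast-spiking interneurons of striatum and cortex.

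Promoter windows were at hand for only 3 of the 6 members, Scgn, Pvalb and Necab2, and all 3 are shown. Each is the 250 bases before a RefSeq transcript start in the build GRCm38.p6, printed in the direction of transcription, with CpG dinucleotides in capitals. Scgn lies on the minus strand at chr13:23991215-23991464, Pvalb on the minus strand at chr15:78206401-78206650 (the outermost of its 2 listed starts), and Necab2 on the plus strand at chr8:119446469-119446718.
Scgn: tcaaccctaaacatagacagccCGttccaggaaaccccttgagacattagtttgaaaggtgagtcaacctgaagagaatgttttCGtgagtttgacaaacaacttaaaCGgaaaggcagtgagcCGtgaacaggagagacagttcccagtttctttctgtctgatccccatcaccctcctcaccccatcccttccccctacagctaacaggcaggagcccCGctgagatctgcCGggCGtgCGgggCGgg
Pvalb: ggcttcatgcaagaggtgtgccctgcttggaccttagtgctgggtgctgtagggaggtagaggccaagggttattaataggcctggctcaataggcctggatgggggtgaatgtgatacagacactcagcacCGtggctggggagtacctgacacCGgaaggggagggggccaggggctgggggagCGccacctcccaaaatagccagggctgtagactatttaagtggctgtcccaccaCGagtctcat
Necab2: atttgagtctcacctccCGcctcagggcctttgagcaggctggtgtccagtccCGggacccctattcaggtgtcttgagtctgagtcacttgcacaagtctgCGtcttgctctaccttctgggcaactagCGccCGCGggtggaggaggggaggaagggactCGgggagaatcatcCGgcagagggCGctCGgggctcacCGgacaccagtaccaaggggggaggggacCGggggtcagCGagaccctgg
The windows held 9, 4 and 13 CpG dinucleotides in that order, against a median of 6 over 32851 windows of this length. The GC box GGGCGG, searched on both strands, occurred once in the Scgn window and in neither of the others, while 32.7% of all windows hold it. Neither the homeodomain core TAATTA (4.8% of all windows) nor the TATA box TATAAA (12.4%) occurred in any of the 3. These matches describe letters only, and the arrays do not measure binding or methylation.

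Values are deposited log2 expression levels from 1-colour Affymetrix arrays, and means are given ± SD. Differences come from limma, fitted to all genes and all 16 arrays in 4 groups, and adjusted p-values are Benjamini-Hochberg values over the 19938 genes with a threshold of 0.05. The arrays had medians from 7.45 to 7.65 and lower quartiles from 5.89 to 6.13, and the number of arrays limits the precision. Smarca4, the gene of Brg1, was at 10.71 ± 0.04 in SEZ control, 10.70 ± 0.08 in SEZ cKO, 11.01 ± 0.04 in OB control and 11.02 ± 0.06 in OB cKO samples, and its probe set is not resolved by exon, so it checks nothing about the floxed part. Slc1a3 stood apart in cKO replicate 3, at 8.16 in SEZ and 8.85 in OB, where the other 14 arrays lay between 11.16 and 12.27. The glutamate transporter gene Slc17a7 stood at 10.58 and 11.06 in SEZ control replicates 2 and 4 and at 7.84 to 8.98 in the other SEZ arrays. It was higher in OB, at 12.32 to 12.64 in controls and at 12.51 to 12.61 in cKO samples.

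The tissues were compared first. In controls, 5 of the 6 members differed between OB and SEZ, where 27.5% of all genes did. Calb2 and Scgn were far higher in OB (2 of 6, against 12.6% of all genes), and Calb1, Pvalb and Necab2 were lower (3 of 6, against 14.9%). In cKO samples all 6 differed, against 23.1% of all genes. The same 2 were higher (10% of all genes) and 4 were lower (13.1%), Necab1 now among them. With each array centred on its median, the genes called in cKO samples split into 1487 higher and 3073 lower in OB, in place of 1993 and 2621, and the members' calls stayed the same. The median difference over the members was -0.28 in controls and -0.35 in cKO samples, against 0.0034 and -0.016 over all genes. In bulk tissue, fewer cells of a type and less RNA per cell cannot be told apart, which holds for every difference below. The 2 tissue comparisons used separate arrays.

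**Figure D1:**
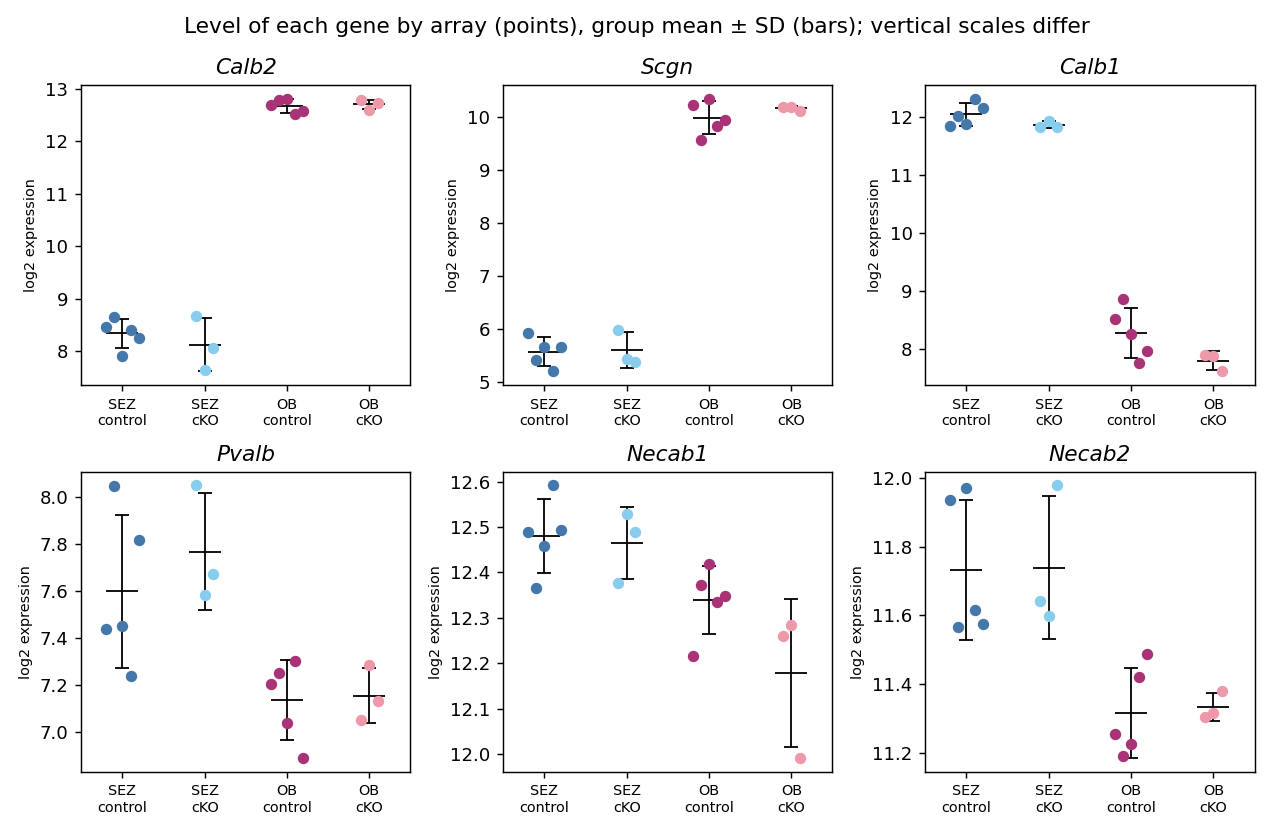
Log2 expression of the 6 genes on each of the 16 arrays (points, in order of replicate number) in the 4 groups, with the group mean and SD (bars); each panel has its own vertical scale. Calb2 and Scgn sit high in all 8 OB arrays, and Calb1 sits high in all 8 SEZ arrays. The tissue means of the other 3 genes differ by under 1 log2 unit, and the control arrays of Pvalb and Necab1 overlap between tissues.

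Calb2, calretinin, was at 12.70, 12.79, 12.82, 12.51 and 12.58 in OB control replicates 1 to 5 and at 12.78, 12.60 and 12.73 in OB cKO replicates 1 to 3. In SEZ it was at 8.46, 8.64, 7.91, 8.41 and 8.25 in the controls and at 8.66, 7.64 and 8.05 in cKO samples. Every OB array lay above every SEZ array, with 3.88 log2 units between the nearest control arrays and 3.95 between the nearest cKO arrays. The difference was 4.34 in controls (SE 0.15, adjusted p = 1.19e-12), a 20.3-fold higher level, and 4.59 in cKO samples (SE 0.20, adjusted p = 3.07e-11), or 24.0-fold. Among all genes this was the fourth largest rise in controls and the third largest in cKO samples. The spread was wider in SEZ, with a range of 0.73 in controls and 1.01 in cKO samples, than in OB, with ranges of 0.30 and 0.18. In order of mean level the groups ran SEZ cKO, SEZ control, OB control, OB cKO, and the neighbours within each tissue overlapped.

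Scgn, secretagogin, was at 10.23, 9.57, 10.35, 9.83 and 9.94 in OB controls and at 10.20, 10.19 and 10.12 in OB cKO samples. Its SEZ levels were 5.93, 5.41, 5.66, 5.20 and 5.65 in controls and 5.99, 5.44 and 5.38 in cKO samples. OB and SEZ arrays did not overlap, with gaps of 3.65 in controls and 4.13 in cKO samples. The SEZ levels lay around or below the lower quartile of each array and the table holds no detection call, so SEZ expression above background is not shown and neither a fold nor a rank is given. The deposited values differed by 4.42 in controls (SE 0.16, adjusted p = 1.09e-12) and by 4.57 in cKO samples (SE 0.20, adjusted p = 3.61e-11), which depends on where background lies on this scale. By mean level the groups ran SEZ control, SEZ cKO, OB control, OB cKO, with overlap within each tissue. The 3 OB cKO arrays fell within 0.077 of each other, whereas the 5 OB controls spanned 0.78 and lay on both sides of them.

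Calb1, calbindin, had the opposite pattern. It was at 11.84, 12.01, 11.87, 12.31 and 12.15 in SEZ controls and at 11.83, 11.93 and 11.82 in SEZ cKO samples. In OB it was at 8.52, 8.86, 8.26, 7.76 and 7.96 in controls and at 7.90, 7.88 and 7.61 in cKO samples. All SEZ arrays lay above all OB arrays, by at least 2.97 in controls and 3.92 in cKO samples. The OB minus SEZ difference was -3.76 in controls (SE 0.16, adjusted p = 1.07e-11), a 13.6-fold lower level, and -4.06 in cKO samples (SE 0.21, adjusted p = 2.01e-10), or 16.7-fold. This was rank 13 among all falls in controls and rank 8 in cKO samples. The order of means was OB cKO, OB control, SEZ cKO, SEZ control, with overlap between genotypes in both tissues. OB controls were the most uneven group of this gene, spanning 1.10 log2 units, with replicates 4 and 5 inside or next to the range of the cKO arrays.

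Pvalb, parvalbumin, was lower in OB by a small margin. OB controls were at 7.21, 7.25, 7.04, 7.30 and 6.89 and OB cKO samples at 7.05, 7.28 and 7.13. All of these lay below the lowest array median, 7.45. No detection call is given, so how far they stand above background is not known. SEZ controls were at 7.44, 8.05, 7.45, 7.24 and 7.82 and SEZ cKO samples at 8.05, 7.58 and 7.67. In controls the tissues overlapped by 0.062, because SEZ control replicate 4 lay below OB control replicates 2 and 4, and in cKO samples they were 0.30 apart. The difference was -0.46 in controls (SE 0.14, adjusted p = 0.0175) and -0.61 in cKO samples (SE 0.18, adjusted p = 0.0177). Without SEZ control replicate 5 the control difference was -0.41 (adjusted p = 0.0511), and without OB control replicate 5 it was -0.40 (adjusted p = 0.0509). The cKO difference did not pass without SEZ cKO replicate 1 (-0.47), OB cKO replicate 1 (-0.56) or OB cKO replicate 3 (-0.60), nor without cKO replicate 1 (-0.42) or 3 (-0.65) in both tissues.

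The Necab genes showed small differences between the tissues. Necab2, whose protein is known to bind an adenosine receptor of striatal neurons and a metabotropic glutamate receptor, was at 11.25, 11.19, 11.22, 11.42 and 11.49 in OB controls and at 11.30, 11.32 and 11.38 in OB cKO samples. Its SEZ levels were 11.93, 11.57, 11.97, 11.62 and 11.57 in controls and 11.64, 11.60 and 11.98 in cKO samples. The SEZ levels were spread, with a range of 0.41 in controls and 0.38 in cKO samples, close to the difference between the tissues. The tissues did not overlap, though the nearest arrays were only 0.079 apart in controls and 0.22 apart in cKO samples. OB minus SEZ was -0.42 in controls (SE 0.10, adjusted p = 0.0037) and -0.41 in cKO samples (SE 0.13, adjusted p = 0.0282). The cKO call was lost with cyclic loess (-0.37, adjusted p = 0.0692), without SEZ cKO replicate 3 (-0.29), without any 1 of the OB cKO replicates (-0.39, -0.40 and -0.43 for replicates 1 to 3), and without cKO replicate 1 (-0.44) or 3 (-0.31) in both tissues.

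Necab1, its paralogue, was at 12.22, 12.37, 12.42, 12.34 and 12.35 in OB controls and at 12.26, 12.28 and 11.99 in OB cKO samples. SEZ controls were at 12.49, 12.37, 12.46, 12.59 and 12.49 and SEZ cKO samples at 12.38, 12.53 and 12.49. SEZ and OB overlapped by 0.053 in controls and were 0.092 apart in cKO samples, where OB cKO replicate 3 was the lowest of all 16 arrays. The difference did not pass in controls (-0.14, SE 0.07, 95% interval -0.29 to 0.0021, adjusted p = 0.146) and passed in cKO samples (-0.29, SE 0.09, adjusted p = 0.0246). The latter call was lost without SEZ cKO replicate 2 (-0.26), SEZ cKO replicate 3 (-0.27) or OB cKO replicate 3 (-0.19), and was -0.18 without cKO replicate 3 in both tissues. The difference between the 2 genotypes' tissue differences was itself tested in limma and did not pass for Necab1 (-0.15, 95% interval -0.38 to 0.09, adjusted p = 1.00).

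**Figure D2:**
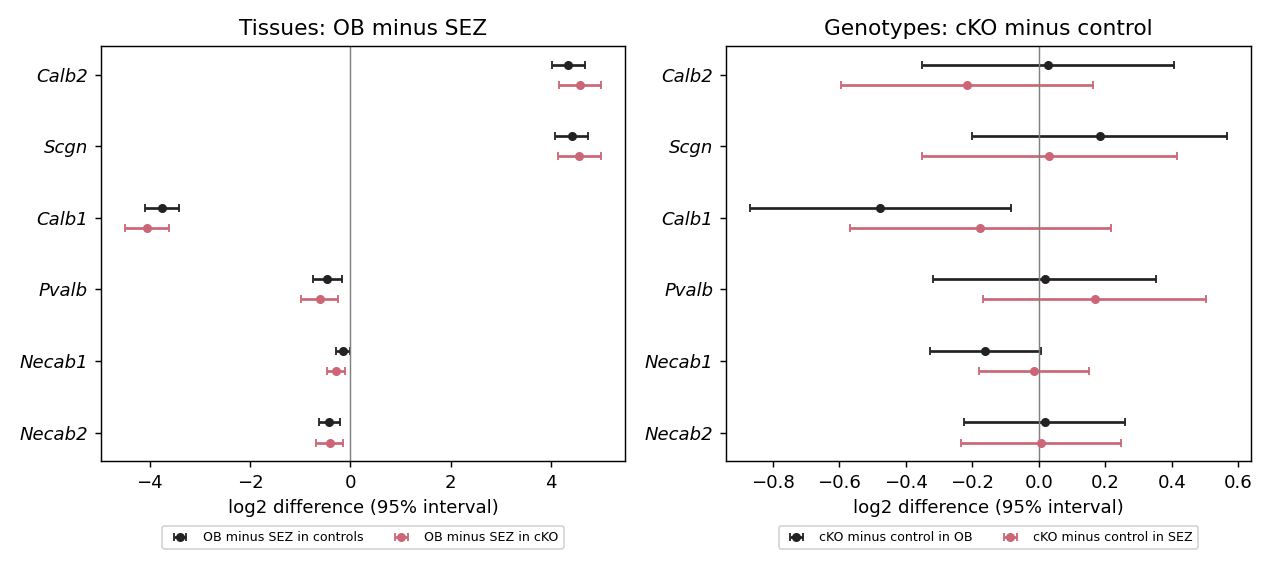
Log2 differences of the 6 genes with 95% intervals from limma: OB minus SEZ in controls and in cKO samples (left), and cKO minus control in OB and in SEZ (right); the horizontal scales differ. Calb2 and Scgn lie above 4 and Calb1 below -3.7 on the left, while on the right all estimates lie between -0.48 and 0.18.

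Marker lists of the tissues ran beside these differences. Of 18 measured genes of granule and periglomerular interneurons, 13 were higher in OB controls and 1 was lower (median 1.04). The higher ones included Th, the dopamine synthesis enzyme of other periglomerular cells (3.14, SE 0.15, adjusted p = 5.59e-11), and the transcription factor Sp8 (2.67, SE 0.11, adjusted p = 4.89e-12). In cKO samples 14 were higher and 1, Ddc, was lower (-0.72), while Gad2 (-0.028), Slc32a1 (-0.13) and Dlx6 (-0.15) did not pass. The list mean was 11.04 to 11.13 in OB controls and 10.99 to 11.14 in OB cKO samples, against 9.96 to 10.08 and 9.85 to 10.01 in SEZ. All 10 measured striatal projection neuron genes were lower in OB (median -3.91), and their mean was 12.34 to 12.57 over the SEZ arrays and 8.43 to 8.72 over the OB arrays. Drd1, a dopamine receptor of these neurons, was at 12.51 ± 0.11 in SEZ and 8.04 ± 0.23 in OB controls. Mitral and tufted cell genes were also higher in OB controls (7 of 8, with 0 lower, median 2.09). So were neuroblast genes (10 of 12, with 1 lower, median 0.85). The list of interneurons of striatum, septum and cortex was mixed, with 5 of 14 genes higher in OB controls and 7 lower. Sst, somatostatin, was lower (-2.16), as was Lhx6 (-1.07), a factor of interneurons from the medial ganglionic eminence. Kcnc1 (0.96) and Kcnc2 (1.61), potassium channels of fast-spiking cells, were higher. In cKO samples, where Kcnc1 was at 1.07 and Kcnc2 at 2.11, Syt2 of the same list was lower in OB (-1.54). Kcns3 did not pass there (0.11). No member is in any of these lists, and the part of any of these cells in the levels of the 6 genes was not tested. Myelinating oligodendrocyte genes (9 of 9) and ependymal genes (10 of 10) were also lower in OB controls, with medians of -1.17 and -0.92.

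The arrays that stood apart were left out in turn. Without SEZ control replicates 2 and 4, the differences in controls were 4.47 for Calb2, 4.24 for Scgn, -3.68 for Calb1, -0.43 for Pvalb, -0.14 for Necab1 and -0.51 for Necab2, with the same calls. Without cKO replicate 3 in both tissues, the differences in cKO samples were 4.54 for Calb2, 4.48 for Scgn and -3.99 for Calb1, which passed, while those of Pvalb, Necab1 and Necab2 did not, as given above.

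**Figure D3:**
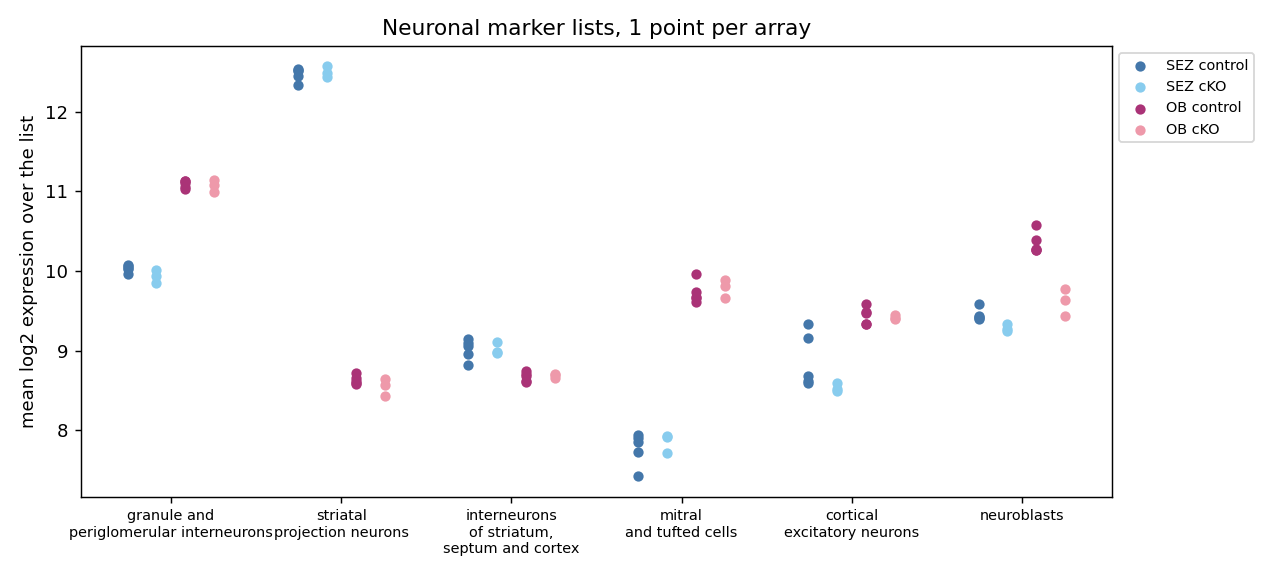
Mean log2 expression over each of 6 neuronal marker lists, 1 point per array and 1 colour per group; levels are to be compared between groups within a list, not between lists. The striatal list separates SEZ (12.34 to 12.57) from OB (8.43 to 8.72), the granule and periglomerular list separates them the other way, and the neuroblast list is lower in OB cKO (9.44 to 9.78) than in OB control arrays (10.26 to 10.58).

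The study's own comparison, cKO against control, was then made for the 6 genes in each tissue. In OB, 0 of 6 passed in limma, where 0.0451% of all genes did, and 1 of 6 had an unadjusted p under 0.05. Estimates ran from -0.48 (Calb1) to 0.18 (Scgn), with a median of 0.018 against -0.0053 over all genes. In SEZ, 0 of 6 passed, as did 0% of all genes, and 0 of 6 had an unadjusted p under 0.05. Estimates there ran from -0.22 (Calb2) to 0.17 (Pvalb), with a median of -0.0042 against 0.0044 over all genes. Over all genes, 700 had an unadjusted p under 0.05 in OB and 492 in SEZ. Without cKO replicate 3 in both tissues, 0 of 6 passed either, with estimates from -0.38 (Calb1) to 0.21 (Scgn) in OB.

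The calretinin gene Calb2 was at 12.70 ± 0.09 (n = 3) in OB cKO samples against 12.68 ± 0.13 (n = 5) in OB controls, and the arrays overlapped. Its difference was 0.027 (95% interval -0.35 to 0.41). In SEZ the difference was -0.22 (-0.59 to 0.16), where cKO samples were at 8.12 ± 0.51 (n = 3) and controls at 8.33 ± 0.27 (n = 5), with overlap. Scgn differed by 0.18 in OB (-0.20 to 0.56) and by 0.032 in SEZ (-0.35 to 0.41). Pvalb differed by 0.018 in OB (-0.32 to 0.35) and by 0.17 in SEZ (-0.17 to 0.50), where the estimate was 0.028 without SEZ cKO replicate 1 and 0.28 without SEZ control replicate 2. The intervals of these 3 genes reach from -0.59 to 0.56, and a missed threshold does not show equal levels.

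Calb1 had the largest estimate of the 6 in OB. Its mean was 7.80 ± 0.16 (n = 3) in the arrays labelled cKO and 8.27 ± 0.44 (n = 5) in controls, a difference of -0.48 (SE 0.19, 95% interval -0.87 to -0.08). The unadjusted p was 0.0205 and the adjusted p 1.00 in limma, which ranked it 280 of 19938 genes by p, so it did not pass. The groups overlapped by 0.14, as OB control replicate 4 lay below OB cKO replicates 1 and 2. Without OB control replicate 2, the highest array, the estimate was -0.33, and without OB control replicate 4 it was -0.60. The mitral and tufted cell list (8 genes) had its highest OB mean in that same control replicate 2, at 9.97, with 9.61 to 9.73 in the other controls and 9.66 to 9.89 in cKO samples. The list of endothelium and mural cells (10 genes) was at 9.01 in it, at 8.54 to 8.79 in the other controls and at 8.60 to 8.83 in cKO samples. Among the lists read, these 2 correlated most with Calb1 over the OB arrays after group means were removed (r = 0.886 for endothelium and mural cells, 0.78 for mitral and tufted cells). That array also had the highest OB mean of the astrocyte list (10.82) and of the ependymal list (7.08). The same held for interneurons of striatum, septum and cortex (8.75) and for other EF-hand proteins. The part of any of these lists in the Calb1 values was not tested. In SEZ the Calb1 difference was -0.18 (-0.57 to 0.22).

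The Necab genes were close between genotypes in SEZ, with -0.015 (-0.18 to 0.15) for Necab1 and 0.0067 (-0.23 to 0.25) for Necab2. In OB, Necab2 differed by 0.017 (-0.22 to 0.26). Necab1 differed by -0.16 in OB (SE 0.08, -0.33 to 0.0058), from 12.18 ± 0.16 (n = 3) against 12.34 ± 0.07 (n = 5). OB cKO replicate 3, at 11.99, was the lowest array, with the next at 12.22, and without it the difference was -0.066.

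The difference between the cKO effects of the tissues passed for 0 of 6 members, against 0.00502% of all genes, and 0 of 6 had an unadjusted p under 0.05. It was 0.24 for Calb2 (95% interval -0.29 to 0.78), 0.15 for Scgn (-0.39 to 0.69), -0.30 for Calb1 (-0.85 to 0.26), -0.15 for Pvalb (-0.63 to 0.32), -0.15 for Necab1 (-0.38 to 0.09) and 0.011 for Necab2 (-0.33 to 0.35). These estimates moved with single arrays. That of Calb2 was 0.0053 without SEZ cKO replicate 2 and 0.51 without SEZ cKO replicate 1, that of Scgn 0.038 without SEZ cKO replicate 3 and 0.34 without SEZ cKO replicate 1, and that of Calb1 -0.15 without OB control replicate 2 and -0.43 without OB control replicate 4. The same values state how far the tissue difference of each gene shifted with genotype. The list of neuroblasts, the migrating precursors of bulb interneurons, was read in the same arrays. Of its 12 genes 5 fell and 0 rose in OB cKO samples, where 0.0451% of all genes passed (median -0.64, against -0.0053 over all genes). Among the 5 was the surface glycoprotein Cd24a (-1.50, SE 0.20, adjusted p = 0.00525 in limma). The lists were chosen with earlier results of these data known, so this count is no independent evidence. The 9 calls over all genes in OB numbered 2 once OB cKO replicate 3 was left out, and 5 when the array left out was OB control replicate 4, OB control replicate 5, SEZ control replicate 4 or SEZ cKO replicate 2. The granule and periglomerular list had 0 of 18 genes called in OB (median -0.040) and 0 of 18 in SEZ (median -0.061). Whether these lists differed from each other was not tested.

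Other genes of EF-hand proteins were read from a list of 40, of which 38 were measured. In controls 9 were higher in OB, 14 were lower and 15 did not pass, with a median of -0.17. The higher and lower shares were 23.7% and 36.8%, against 12.6% and 14.9% of all genes. The largest rises were those of Kcnip1 (2.29, SE 0.18, adjusted p = 2.6e-08), a sensor that binds Kv4 potassium channels, and Necab3 (2.18, SE 0.10, adjusted p = 1.68e-11), the third Necab gene. They were followed by S100a10 (1.46), the annexin A2 partner that binds no calcium itself, Efhd2 (1.22) and the neuronal sensor Ncald (0.62). Caln1 fell most (-3.45, SE 0.14, adjusted p = 6.96e-12), followed by the hippocalcin gene Hpca (-1.65), the reticulocalbin gene Rcn1 (-1.57), Tesc (-1.22) and Hpcal1 (-1.10). Necab3 therefore stood higher in OB in the same arrays in which Necab2 stood lower. In cKO samples 6 of the 38 were higher in OB and 11 lower (median -0.18), with Kcnip1 at 2.09, Necab3 at 2.44 and Caln1 at -3.83. Between genotypes 0 of 38 passed in OB (median -0.057), in SEZ (median -0.013) or in the difference of effects.

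**Figure D4:**
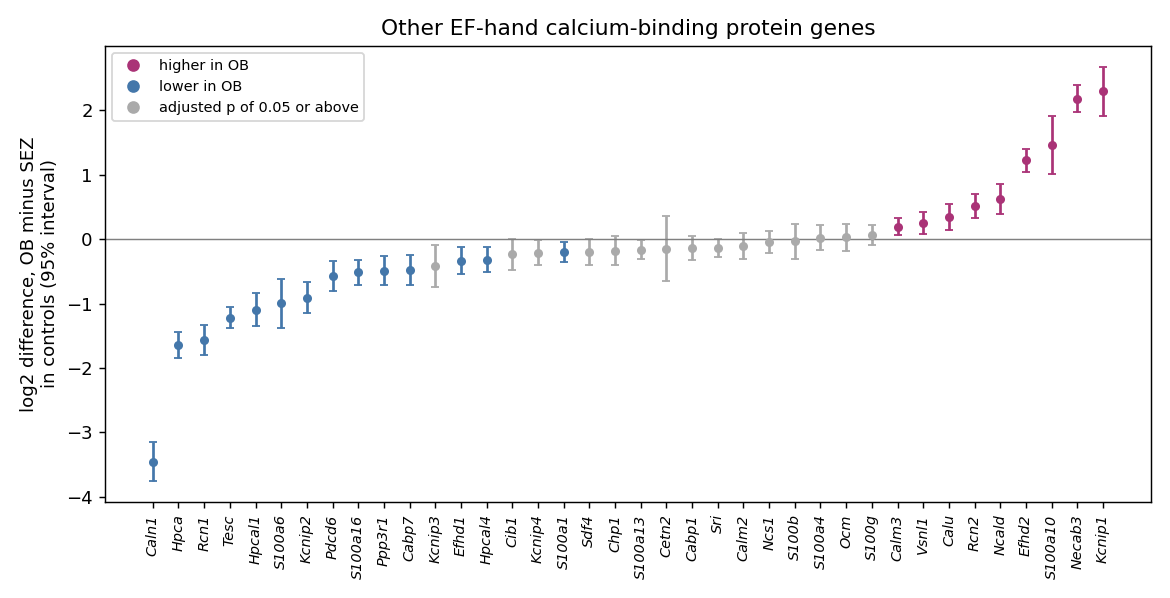
Log2 difference between OB and SEZ in controls, with 95% intervals, for the 38 measured genes of other EF-hand proteins, ordered by size and coloured by call. From Caln1 at -3.45 to Kcnip1 at 2.29 the family spreads over both directions, with 14 lower, 9 higher and 15 not called.

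Calcium is also removed and released by pumps, exchangers and store channels. Of 19 measured genes of 22 listed, 3 were higher and 7 lower in OB controls (median -0.069). These are 15.8% and 36.8%, against 12.6% and 14.9% of all genes. The sodium-calcium exchanger Slc8a1 was higher (2.25, SE 0.29, adjusted p = 1.16e-05) while its paralogue Slc8a2 was lower (-1.62, SE 0.11). The ryanodine receptor Ryr2 was higher (1.2) and Ryr3 lower (-1.54), and Slc8a3 was higher by 0.42. The potassium-dependent exchangers Slc24a4 (-2.67) and Slc24a2 (-1.61) were lower, and so was Ryr1 (-0.64). In cKO samples 3 were higher and 5 lower (median -0.18). Between genotypes 0 of 19 passed in either tissue (medians -0.0041 in OB and 0.026 in SEZ) or in the difference of effects.

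The genes whose levels most resembled each member were found by Pearson correlation over the 16 arrays, which share 2 tissues, so that for genes with large tissue differences r mostly restates that difference. Calb2 was closest to Tm6sf1 (r = 0.997), Gng4 (0.996) and Mdga1 (0.995), and Scgn to Kcnab3 (0.998), Frmd7 (0.997) and Trdn (0.997). Calb1 was closest to Ets2 (0.993), Stk32a (0.993) and Rab15 (0.993). Necab2 was closest to Them6 (0.958), the muscarinic receptor gene Chrm4 (0.948) and Plk5 (0.948). Pvalb was closest to Wdr91 (0.917), Tmem125 (0.913) and Nkx2-1 (0.897), and Necab1 to Pcmtd1 (0.935), Efna3 (0.912) and Neto2 (0.908).

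After each group's mean was removed, the closest genes were others. Calb2 deviated most like Prkag1 (r = 0.900), Olfr347 (0.880) and Cbln4 (0.858), Scgn like Slc9a3r2 (0.875), Slc7a10 (0.867) and Sirt2 (0.857), and Calb1 like Cyp2j6 (0.901), Chl1 (0.879) and Cd55 (0.848). Pvalb deviated most like Olfr381 (0.841), Nme6 (0.83) and Cyb5r2 (0.824). Necab1 deviated most like Ppme1 (0.911), Pcmtd1 (0.868) and Snap25 (0.855), and Necab2 like Tcof1 (0.909), Stc1 (0.906) and Tmco6 (0.895). Pcmtd1 is the only gene that appears for the same member under both measures. These are the best of all other genes measured for each member over 16 arrays and are given as a description.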

How the data were processed

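Total RNA of 16 tissue samples was hybridised to 1-colour Affymetrix arrays. The deposited values are log2 expression per probe set, made by the authors with RMA in Affymetrix Expression Console 1.2, per the submitters' processing notes. RMA forces similar distributions on all arrays and summarises a gene's probes, so levels are relative and compressed near background. No genome build is given in the sources used here. Of 35556 probe sets, 21789 had 1 symbol, 1621 several and 12146 none in the platform annotation; only the first were tested, and the brightest probe set stood for a gene. Symbols were checked through Entrez identifiers in a RefSeq table (GRCm38.p6, 21698 matched, 0 changed).

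limma 3.58.1 in R 4.3.3 was fitted to 4 group means without covariates (12 residual and 4.34 prior degrees of freedom). Tests were two-sided. The script was tested on simulated data for 19938 genes. For cKO against control in OB it called 61 of 100 genes changed by 0.5 and 95 of 100 changed by 1, with 4 false calls. For the difference of effects it called 28 of 100 and 83 of 100. These rates describe the simulated data and do not give a detection rate for the members. In the arrays, Igfbpl1 did not pass in limma in OB at -0.84 (SE 0.16, adjusted p = 0.13), while Tubb2b passed at -0.58 (SE 0.097, adjusted p = 0.039). Same-numbered samples of the 2 tissues had deviations correlated above 0.1 in 7 of 8 pairs (r -0.061 to 0.566), short of the rule for pairing, so the main fit used no block. Same-numbered cKO and control arrays of a tissue, which cannot be 1 animal, did so in 5 of 6 pairs (r -0.405 to 0.611). What the numbers stand for was not tested. The named list genes are those with the largest tissue differences in controls, up to 5 in each direction, among those past the threshold. The members and lists were chosen with earlier results of these data known. Alternatives covered scaling, filters, blocks, probe sets, the threshold and left-out arrays.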

Additional observations from a re-analysis of the deposited data

How the results depend on the processing

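The tissue differences of Calb2, Scgn and Calb1 kept direction and call under all alternatives run, with 4.24 to 4.47, 4.24 to 4.52 and -3.91 to -3.64 in controls, and so did Necab2 in controls (-0.51 to -0.36). Leaving out 1 array gave -0.55 to -0.35 for Pvalb in controls, and in cKO samples -0.71 to -0.47 for Pvalb, -0.34 to -0.19 for Necab1 and -0.48 to -0.29 for Necab2, with calls lost as described. Without cKO replicate 1 in both tissues Pvalb was at -0.42 and Necab2 at -0.44 in cKO samples, and 2996 genes differed in place of 4614. Without cKO replicate 3 in both tissues Pvalb was at -0.65, Necab1 at -0.18 and Necab2 at -0.31, and Necab2 was at -0.37 with cyclic loess. The cause was not tested, beyond the smaller number of arrays. Centring on array medians made 39.7% of the called genes higher in OB in controls, where the main fit had 45.7%, and 32.6% in place of 43.2% in cKO samples. Genes whose mean lay above the median gene did not include Scgn or Pvalb in 1 alternative, which gives no value for them.

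No member was called between genotypes under any alternative, and estimates near 0 changed sign. With 1 array left out, OB estimates ran from -0.014 to 0.077 for Calb2, -0.047 to 0.070 for Pvalb and -0.014 to 0.060 for Necab2. In SEZ they ran from -0.48 to 0.022 for Calb2, -0.16 to 0.14 for Scgn, -0.047 to 0.029 for Necab1 and -0.11 to 0.078 for Necab2, whose difference of effects ran from -0.060 to 0.13. The other genotype estimates kept their sign, from 0.079 to 0.27 for Scgn, -0.60 to -0.33 for Calb1 and -0.21 to -0.066 for Necab1 in OB, and from -0.23 to -0.11 for Calb1 and 0.028 to 0.28 for Pvalb in SEZ. So did the other differences of effects, from 0.0053 to 0.51 for Calb2, 0.038 to 0.34 for Scgn, -0.43 to -0.15 for Calb1, -0.26 to -0.010 for Pvalb and -0.20 to -0.051 for Necab1. With the replicate block, OB estimates were -0.019 for Calb2 and -0.020 for Pvalb, SEZ estimates -0.048 for Scgn and 0.0070 for Necab1, and 5 genes were called in OB and 2 in SEZ; the block changed no call of a member. With cyclic loess Pvalb was at -0.015 in OB, Necab1 at 0.016 in SEZ, and 5 genes were called in OB. With median centring OB estimates were -0.017 for Calb2, -0.026 for Pvalb and -0.026 for Necab2, Necab2 differed by -0.035 between the effects, and 1 gene was called in SEZ. Without cKO replicate 1 in both tissues, Calb2 was at -0.011 in OB, Scgn at -0.16 and Necab1 at 0.029 in SEZ, and the effects differed by 0.043 for Pvalb and -0.024 for Necab2. Without cKO replicate 3 in both tissues, Necab2 was at -0.0056 in OB and -0.11 in SEZ. Without SEZ control replicates 2 and 4, Scgn was at -0.145 and Necab2 at -0.088 in SEZ.

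Over all genes, 9 were called in OB. The count was 2 to 9 with 1 array left out, 3 from OB arrays alone, 5 without SEZ control replicates 2 and 4 or without cKO replicate 1, and 2 without cKO replicate 3. The 1 gene whose effects differed became 0 to 2 with 1 array left out. The count was 0 with same-numbered SEZ and OB samples of a genotype as a block, and with all probe sets. It was also 0 without SEZ control replicates 2 and 4, and without cKO replicate 1 or 3.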

Other observations

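In the OB controls, replicates 4 and 5 had the lowest Calb1 levels, 7.76 and 7.96, and the highest Necab2 levels, 11.42 and 11.49. Replicate 2 had the highest Calb1 (8.86) and the lowest Necab2 (11.19), while replicates 1 and 3 lay between them for both genes, at 8.52 and 8.26 for Calb1 and 11.25 and 11.22 for Necab2. These values were noticed after the data were seen. After group means were removed, Calb1 and Necab2 correlated at r = -0.86 over the OB arrays and -0.70 over the SEZ arrays. The list of endothelium and mural cells correlated with Calb1 at 0.886 in OB and 0.55 in SEZ. With Necab2 it correlated at -0.718 and -0.858. Not every list ran opposite ways, as ependymal genes in OB were at 0.063 with Calb1 and 0.249 with Necab2. The part of any list in this relation was not tested. Over the SEZ arrays Pvalb with Necab1 was stronger (r = -0.87). The OB value of Calb1 with Necab2 was the strongest among all pairs of members over the OB arrays, so it is the extreme of many. No p-value was computed for it.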
